A study of Mus musculus with 12 samples.

Results

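The leukocyte integrins of dendritic cells (DCs) described here are 10 genes, taken by symbol from 2 tables of raw read counts that each list 32190 gene symbols: the alpha subunits Itgal, Itgax, Itga4, Itgav, Itga1 and Itga5 and the beta subunits Itgb2, Itgb7, Itgb1 and Itgb8. The tables cover 12 mouse RNA-seq libraries in 6 groups of 2. The tumoral DCs came from WT-labelled Zbtb46-Tdtomato mice, which carry a red fluorescent reporter at a DC transcription factor gene, and were taken from MC38 colon carcinomas at day 7 (early stage) or day 14 (late stage). The bone marrow-derived DCs (BMDCs), DCs grown from marrow in culture, came from WT or Pde5-/- mice (label: Pde5 knockout) and were left unstimulated or given 200 ng/ml lipopolysaccharide (LPS, a bacterial cell wall component) for 12 h. The BMDC labels add a time of 9 days. The labels call the cells of every group only immune cells and do not tell if its 2 libraries are from different animals or cultures. The p-values therefore cover only how far such libraries differ, a spread that could be technical. The knockout label is used as a label only, because the counts of Pde5a, the gene it names, did not separate the labels: they were 55 and 37 in unstimulated WT, 47 and 61 in unstimulated knockout-labelled, 52 and 20 in LPS-treated WT and 22 and 43 in LPS-treated knockout-labelled libraries. The deleted part of the gene is not given in the sources used here, so reads outside it would check nothing.

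Integrins are cell surface receptors made of 1 alpha and 1 beta subunit that bind matrix proteins or counter-receptors on other cells, and that connect to actin through talin and kindlin once activated. On leukocytes, Itgal pairs with Itgb2 as LFA-1, the receptor for ICAMs, and Itgax pairs with the same beta subunit as CD11c/CD18, the classical surface marker of mouse DCs. Itga4 pairs with Itgb1 as VLA-4, which binds VCAM-1 and fibronectin, or with Itgb7 as the gut-homing receptor for MAdCAM-1. Itga5 and Itga1 pair with Itgb1 as receptors for fibronectin and collagen, and Itgav with Itgb8 releases active TGF-beta from its latent complex. RNA of a subunit does not give the amount of the pair at the surface, which was not measured.

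The total per library was about 14153700 to 19293300 counts for tumoral DCs and 16122900 to 19684300 counts for BMDCs. Values below are on the counts-per-million scale (CPM), relative to the total count of the library. The biological coefficient of variation, which is the spread between libraries of a group beyond counting error, was larger for tumoral DCs (0.278) than for BMDCs (0.138). Of a list of 19 conventional DC markers, Cd74, Flt3 and Zbtb46 were counted in every library. Cd209a, from the same list, was at 0 in both LPS-treated WT libraries. Cd74, the invariant chain of MHC class II, ranged from 5080 to 11821 CPM over both tables. The DC-associated Flt3 and Zbtb46 ranged from 410.3 to 460.2 and from 124 to 254 CPM in BMDCs. In tumoral DCs they ranged from 70.4 to 131 and from 21.8 to 44.1 CPM. The tumoral libraries also held RNA of a list of 14 monocyte and macrophage markers at summed levels of 10761 to 16216 CPM (early) and 17110 to 18486 CPM (late), against 1079 to 2853 CPM in the BMDCs. All 10 integrin genes passed the filter on low counts in both tables.

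Per kilobase of exon, the only scale on which genes are compared here, Itgb2 and Itgb1 led in tumoral DCs and Itgb7 stood first in unstimulated WT BMDCs. In early tumoral DCs the level was 393 ± 1.77 CPM per kb for Itgb2 (SD, n = 2) and 144 ± 5.32 for Itgb1. They were followed by Itgb7, Itgax, Itgal, Itga5, Itga4, Itgav, Itga1 and Itgb8, with overlapping libraries between the neighbours Itgb7 and Itgax and between Itgal and Itga5. Late tumoral DCs kept Itgb2 (307 ± 40.3 CPM per kb) and Itgb1 (123 ± 10.1) at the top and Itga1 (0.441 ± 0.145) and Itgb8 (0.0615 ± 0.0305) at the bottom, with overlap only between the neighbours Itga4 and Itgav.

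In unstimulated WT BMDCs the level per length was 249 ± 42.6 CPM per kb for Itgb7 (SD, n = 2), 206 ± 1.95 for Itgb2 and 146 ± 16.5 for Itgb1, and it was lowest for Itga1, at 4.29 ± 0.197. In this group the neighbours Itgax and Itgal, and Itgal and Itga5, overlapped. After LPS the WT order was led by Itgb1 (169 ± 7.14 CPM per kb), with Itgb2 (105 ± 7.90) and Itgb7 (92.2 ± 13.8) overlapping behind it. The other members lay at or under 61.8 CPM per kb in that group. In knockout-labelled BMDCs Itgb1 stood first both unstimulated (142 ± 1.41 CPM per kb, overlapping Itgb2) and after LPS (184 ± 13.2). Itga1 stood last in both, overlapping Itgb8 in the unstimulated cells, where Itgb2 and Itgb7 overlapped as well. Exon length was the union over all annotated transcripts, from 2.77 kb for Itgb7 to 18.6 kb for Itga1, so long or rarely used exons lower a gene's value on this scale. Tumoral and BMDC levels come from separate tables with different cell sources and were not tested against each other.

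**Figure D1:**
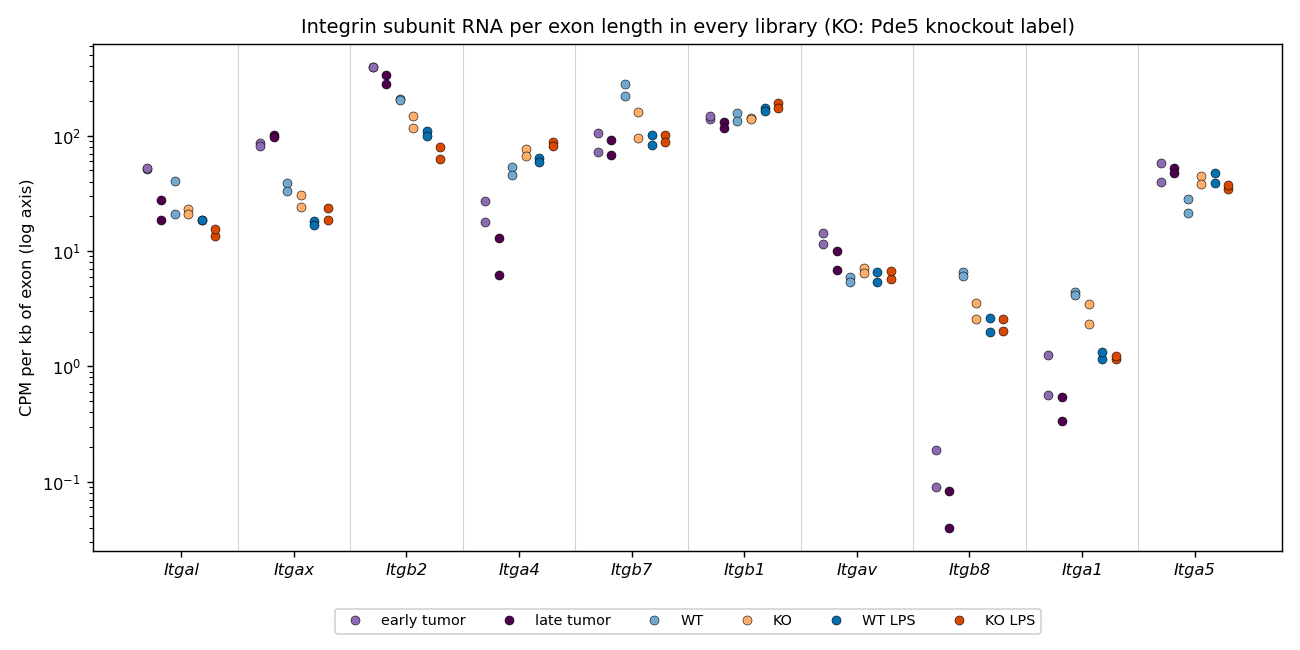
Level of each integrin gene per kilobase of exon (CPM per kb, log axis) in every library, with 1 point per library coloured by group. Itgb2 and Itgb1 lie high in all 6 groups, and Itgb8 lies lowest in tumoral DCs, at 0.0615 to 0.139 CPM per kb as group means, against 2.29 to 6.36 in BMDCs.

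Between early and late tumors, no integrin gene passed the test at an adjusted p under 0.05 (0 of 10, against 0.023% of 13040 genes tested; 2 of 10 members and 1438 of 13040 genes had an unadjusted p under 0.05; limma-voom called 0 members and DESeq2 1, where it called 2.27% of all genes). The 2 largest differences among well-counted members were lower values of Itgal and Itga4 in late tumors. The median log2 difference (late minus early) was -0.38 over the members and 0.01 over all genes. In these bulk libraries a smaller share of cells that carry a gene and less of its RNA per cell cannot be told apart.

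Itgal, the LFA-1 alpha chain (mm10 chr7:127296260-127335138, plus strand), was counted at 341 and 342 CPM in the early and at 181 and 123 CPM in the late libraries. The log2 difference was -1.07 (SE 0.246, adjusted p = 0.194) and did not pass the test. Itgal is the gene that the alternatives below refer to. It was called by DESeq2 (-1.09, adjusted p = 0.0107), where 2.27% of all genes were called. It was also called with no filter on low counts (-1.08, adjusted p = 0.00116), where 3.72% of all genes were called. Without early replicate 1 the difference was -1.16, and without early replicate 2 it was -0.96. Over all alternatives the Itgal difference ran from -1.34 to -0.86.

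Its partner Itgb2 (chr10:77530252-77565708, plus strand), the common beta chain of the leukocyte integrins, was counted at 1202 and 1194 CPM early and at 1023 and 849 CPM late, a log2 difference of -0.26 (SE 0.226, adjusted p = 0.698). Itgax (chr7:128129547-128150657, plus strand), the other alpha chain of the 10 genes that shares Itgb2, went the other way, from 411 and 389 CPM early to 483 and 469 CPM late (log2 0.36, SE 0.215, adjusted p = 0.575). Neither difference passed the test. A further Itgb2 partner outside the 10 genes, Itgam (CD11b), was counted at 222 to 232 CPM early and at 211 to 213 CPM late.

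Itga4 (chr2:79255426-79333123, plus strand) was counted at 251 and 382 CPM in the early and at 182 and 85.7 CPM in the late libraries, with a log2 difference of -1.18 (SE 0.407, adjusted p = 0.389). Without early replicate 1 it was -1.52. With no filter on low counts, where 3.72% of all genes were called, it was -1.19 and called (adjusted p = 0.000279). Over all alternatives the difference of Itga4 ran from -1.78 to -0.71. Its beta partners moved less: Itgb7 (chr15:102215995-102231944, minus strand) was at 200.4 and 291 CPM early and 187 and 252 CPM late, and Itgb1 (chr8:128685654-128733200, plus strand) at 572 and 602 CPM early and 531 and 473 CPM late. The log2 differences were -0.07 (SE 0.310) for Itgb7 and -0.13 (SE 0.225) for Itgb1, and both changed sign without early replicate 2, to 0.35 and 0.02. Itgb7 changed sign without late replicate 1 too, to 0.15.

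The fibronectin receptor chain Itga5 (chr15:103344286-103366763, minus strand) was at 195 and 284 CPM early and 256 and 234 CPM late, so its groups overlapped. The collagen receptor chain Itga1 (chr13:114953096-115101964, minus strand) was low, at 10.4 and 23.5 CPM early and 10.1 and 6.29 CPM late. Its log2 difference was -0.99 (adjusted p = 0.512), and without early replicate 1 it was -1.51. Itgav (chr2:83724397-83806916, plus strand) was at 153 and 122 CPM early and 107 and 73.1 CPM late (log2 -0.51, SE 0.237, adjusted p = 0.478). Itgb8 (chr12:119158022-119238802, minus strand) had 19 and 36 counts early and 7 and 13 counts late, too few for a narrow interval: the 95% interval of its log2 difference ran from -3.03 to 0.85.

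Summed markers of other cells moved in both directions between the stages in the same libraries. The sum of 14 monocyte and macrophage markers was 10761 to 16216 CPM early and 17110 to 18486 CPM late. For 6 epithelial tumor markers it was 19.2 to 40.3 CPM early and 47.7 to 50.6 CPM late. Sums of conventional DC, B cell and neutrophil markers overlapped between the stages. The 10 endothelial markers summed to 185 to 239 CPM early and 154 to 165 CPM late. The summed level of 17 T cell markers was 581 to 910 CPM early and 109 to 183 CPM late, that of 12 NK and cytotoxic markers was 1195 to 1699 CPM early and 149 to 356 CPM late, and that of 12 fibroblast markers was 573 to 1304 CPM early and 107 to 314 CPM late. Tested singly by edgeR, 1 of 16 T cell, 0 of 12 NK and cytotoxic and 0 of 11 fibroblast markers passed after adjustment, against 0.023% of all genes. At an unadjusted p under 0.05 there were 14, 12 and 5 of them, against 1438 of 13040 genes tested. No member of these 3 lists was at 0 in both libraries of either stage, and the defining T cell gene Cd3e ranged from 51 to 1252 counts. T and NK cells carry Itgal and Itga4 as well, and the part of these cells in the differences of both genes was not tested.

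**Figure D2:**
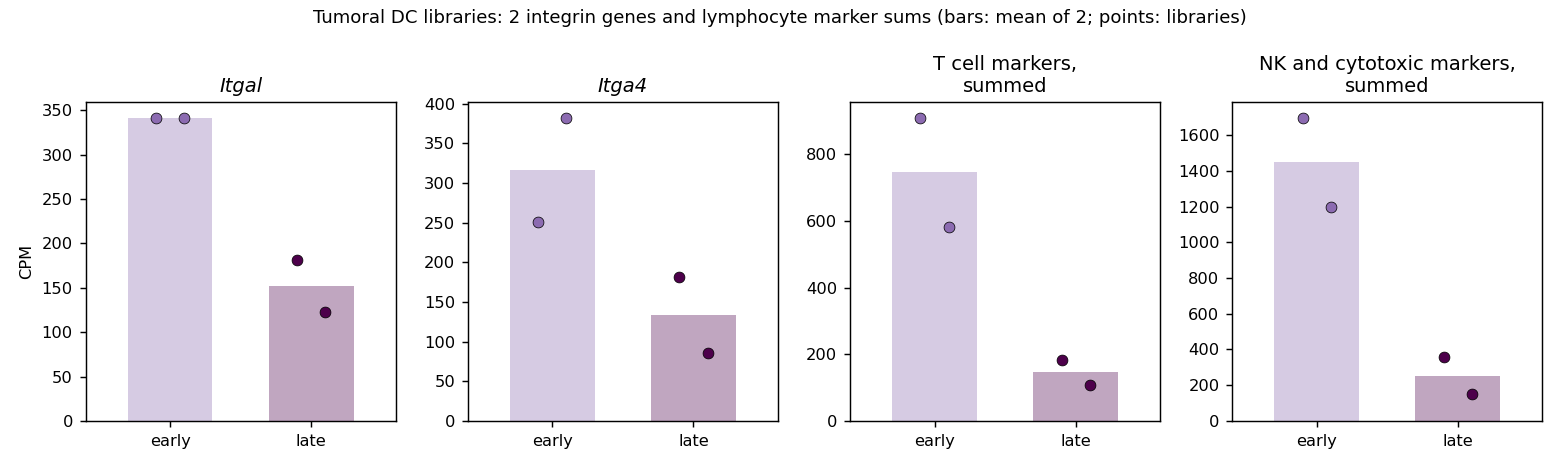
Itgal, Itga4 and the summed T cell and NK and cytotoxic markers (CPM, axes from 0) in the 4 tumoral libraries; bars are means of 2 libraries and points are libraries. All 4 panels are lower in both late libraries than in both early ones, with Itgal at 123 and 181 CPM against 341 and 342.

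LPS treatment of WT BMDCs moved 8 of the 10 integrin genes: 3 rose (Itga4, Itgb1, Itga5) and 5 fell (Itgax, Itgb2, Itgb7, Itgb8, Itga1), while Itgal and Itgav did not pass the test. This response was broad, since 37.6% of 13072 genes tested passed in this comparison, 20% higher and 17.6% lower. The median log2 change was -0.64 over the 10 members and -0.02 over all genes. Scaling by library size alone shifted the median of all genes to -0.23 and the split of all called genes from 2609 higher and 2301 lower to 1689 higher and 3728 lower. It left 6 members called, with Itga4 (log2 0.33, adjusted p = 0.0678) and Itgb1 (0.21, adjusted p = 0.169) lost and no direction turned.

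For the 3 members that changed by at least 2-fold with LPS in WT and whose upstream sequence lies outside annotated exons but for 9 bases or fewer, the 250 bases before the gene start are shown, 5′ to 3′ on the gene's strand (RefSeq, GRCm38.p6, the assembly of mm10), because they include a rise and 2 falls of that size. Itgb8, which fell 2.42-fold, is not shown because its window lies wholly within an annotated exon. They lie at chr15:103366792-103367041 (Itga5, minus strand), chr13:115101965-115102214 (Itga1, minus strand) and chr15:102231936-102232185 (Itgb7, minus strand). Capitals mark a match, on either strand, to 1 of 5 searched motifs.
Itga5: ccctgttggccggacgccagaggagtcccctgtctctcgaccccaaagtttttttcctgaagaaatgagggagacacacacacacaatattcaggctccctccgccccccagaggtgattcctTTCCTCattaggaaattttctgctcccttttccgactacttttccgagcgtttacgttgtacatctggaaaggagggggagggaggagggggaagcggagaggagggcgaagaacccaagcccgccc
Itga1: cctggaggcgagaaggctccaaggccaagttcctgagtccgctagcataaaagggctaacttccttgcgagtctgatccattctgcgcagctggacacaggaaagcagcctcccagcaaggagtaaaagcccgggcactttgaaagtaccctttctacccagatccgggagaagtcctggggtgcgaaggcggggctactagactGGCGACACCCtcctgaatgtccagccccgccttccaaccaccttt
Itgb7: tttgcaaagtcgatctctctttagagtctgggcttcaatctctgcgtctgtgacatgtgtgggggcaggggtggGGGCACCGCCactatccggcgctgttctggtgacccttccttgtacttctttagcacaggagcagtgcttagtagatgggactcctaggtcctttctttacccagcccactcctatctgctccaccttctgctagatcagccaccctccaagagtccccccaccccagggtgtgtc
The motifs were a kappaB site (GGG and CC with 5 bases of any kind between them), an ISRE (GAAA and GAAA with 2 bases of any kind between them), a PU.1 core (GAGGAA), an AP-1 site (TGANTCA) and a RUNX site (TGTGGT), and each of the 3 windows holds 1 match in all, so no matches overlap. In the Itga5 window it is the PU.1 core, here read on the opposite strand, and in the Itga1 and Itgb7 windows it is the kappaB letters. Of 32851 windows of the same length, 45.8% hold the kappaB letters, 3.0% the ISRE, 23.3% the PU.1 core, 6.7% the AP-1 site and 14.0% the RUNX site. Windows were matched for 8 of the 10 members, all but Itgal and Itgb2.

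Itga5, the alpha chain of the classical fibronectin receptor, had the largest rise. It was counted at 139 and 105 CPM in unstimulated and 236 and 192 CPM in LPS-treated WT libraries, and at 219 and 187 CPM in unstimulated and 172 and 186 CPM in LPS-treated knockout-labelled libraries. Both unstimulated WT libraries lay below the other 6. In WT the log2 change with LPS was 1.01 (SE 0.173, adjusted p = 0.00317), a 2.01-fold rise, and in knockout-labelled cells it was -0.11 (SE 0.171, adjusted p = 0.751). The gene overlaps the annotated Mir6963 on the same strand, so its counts are uncertain to that extent.

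Itgb1, the beta chain that pairs with Itga5, Itga4 and Itga1, was at 644 and 549 CPM unstimulated and 709 and 668 CPM after LPS in WT, and at 582 and 574 CPM unstimulated and 789 and 713 CPM after LPS in knockout-labelled libraries. Every LPS library lay above every unstimulated one. The log2 change was 0.41 in WT (SE 0.122, adjusted p = 0.0293) and 0.45 in knockout-labelled cells (SE 0.122, adjusted p = 0.104). Besides library-size scaling, the WT call was lost with upper-quartile scaling (0.34, adjusted p = 0.0575), in a fit of the 2 groups alone (0.41, adjusted p = 0.0632), without WT replicate 2 (0.28, adjusted p = 0.145), without LPS WT replicate 1 (0.37, adjusted p = 0.153) and without LPS WT replicate 2 (0.45, adjusted p = 0.0796).

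Itga4, shared by VLA-4 and the gut-homing pair, was at 745 and 632 CPM unstimulated and 901 and 826 CPM after LPS in WT. In knockout-labelled libraries it was higher throughout, at 1079.9 and 932 CPM unstimulated and 1236 and 1129.6 CPM after LPS. The WT rise was 0.53 on the log2 scale (SE 0.141, adjusted p = 0.0188), and the knockout-labelled change was 0.31 (SE 0.141, adjusted p = 0.247). The WT call was lost without WT replicate 2 (0.40, adjusted p = 0.0965), without LPS WT replicate 1 (0.47, adjusted p = 0.115) and without LPS WT replicate 2 (0.59, adjusted p = 0.0531). Itga4 overlaps Cerkl on the opposite strand, and the strand setting of the counting is not given in the sources used here.

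Itgb7, the partner of Itga4 in gut homing and of Itgae in epithelial retention, was at 607 and 773 CPM in unstimulated WT libraries and fell to 228 and 282 CPM after LPS. In knockout-labelled libraries it was at 267 and 446 CPM unstimulated and 278 and 246 CPM after LPS. The unstimulated WT libraries stood above all 6 others. The WT change was -1.23 (SE 0.229, adjusted p = 0.00492), a 2.35-fold fall, against -0.36 in knockout-labelled cells (SE 0.226, adjusted p = 0.388).

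Itgb8, the TGF-beta-activating beta chain, had nearly the same shape over the 8 libraries. It was at 73.1 and 67.5 CPM unstimulated and 21.8 and 28.8 CPM after LPS in WT, and at 28.4 and 38.9 CPM unstimulated and 28.3 and 22.3 CPM after LPS in knockout-labelled libraries. The WT change was -1.27 (SE 0.187, adjusted p = 0.00159) and the knockout-labelled change -0.33 (SE 0.187, adjusted p = 0.336). Its alpha partner Itgav was flat by comparison, at 63.7 and 57.6 CPM unstimulated and 71.1 and 57.7 CPM after LPS in WT and at 76.1 and 68.7 CPM and 60.8 and 71.4 CPM in knockout-labelled libraries. The log2 changes of Itgav with LPS were 0.29 in WT (95% interval -0.03 to 0.61) and -0.06 in knockout-labelled cells (-0.38 to 0.26), and neither passed the test.

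Itga1, a collagen receptor chain, had the largest fall of the 10 genes with LPS. It was at 82.5 and 77.3 CPM unstimulated and 21.6 and 24.9 CPM after LPS in WT, and at 43.6 and 64.4 CPM unstimulated and 21.6 and 22.9 CPM after LPS in knockout-labelled libraries. Every LPS library lay below every unstimulated one. The WT change was -1.58 (SE 0.170, adjusted p = 0.000477), a 2.99-fold fall, and the knockout-labelled change was -1.20 (SE 0.170), with an adjusted p of 0.0502 just above the threshold. Itga1 overlaps Pelo on the same strand, so its counts are uncertain to that extent.

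Itgb2 was at 632 and 623 CPM unstimulated and 338 and 304 CPM after LPS in WT, and at 356 and 455 CPM unstimulated and 190.2 and 245 CPM after LPS in knockout-labelled libraries. The values fell into 4 levels that did not overlap, highest in unstimulated WT and lowest in LPS-treated knockout-labelled cells. Its LPS change was -0.77 in WT (SE 0.153, adjusted p = 0.00556) and -0.82 in knockout-labelled cells (SE 0.154, adjusted p = 0.0703). Itgax was at 188 and 161 CPM unstimulated and 87.0 and 81.1 CPM after LPS in WT, a change of -0.85 (SE 0.147, adjusted p = 0.00305). In knockout-labelled libraries it was at 115 and 146 CPM unstimulated and 112 and 89.9 CPM after LPS (-0.29, SE 0.146, adjusted p = 0.283).

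Itgal differed widely between the 2 unstimulated WT libraries, at 136 CPM in replicate 1 and 268 CPM in replicate 2. It was at 122 and 123 CPM after LPS in WT, and at 153 and 137 CPM unstimulated and 88.6 and 102 CPM after LPS in knockout-labelled libraries. The WT change with LPS was -0.52 (SE 0.267, adjusted p = 0.169). It was 0.02 without WT replicate 2 and -0.91 without WT replicate 1, where it was called (adjusted p = 0.00236).

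**Figure D3:**
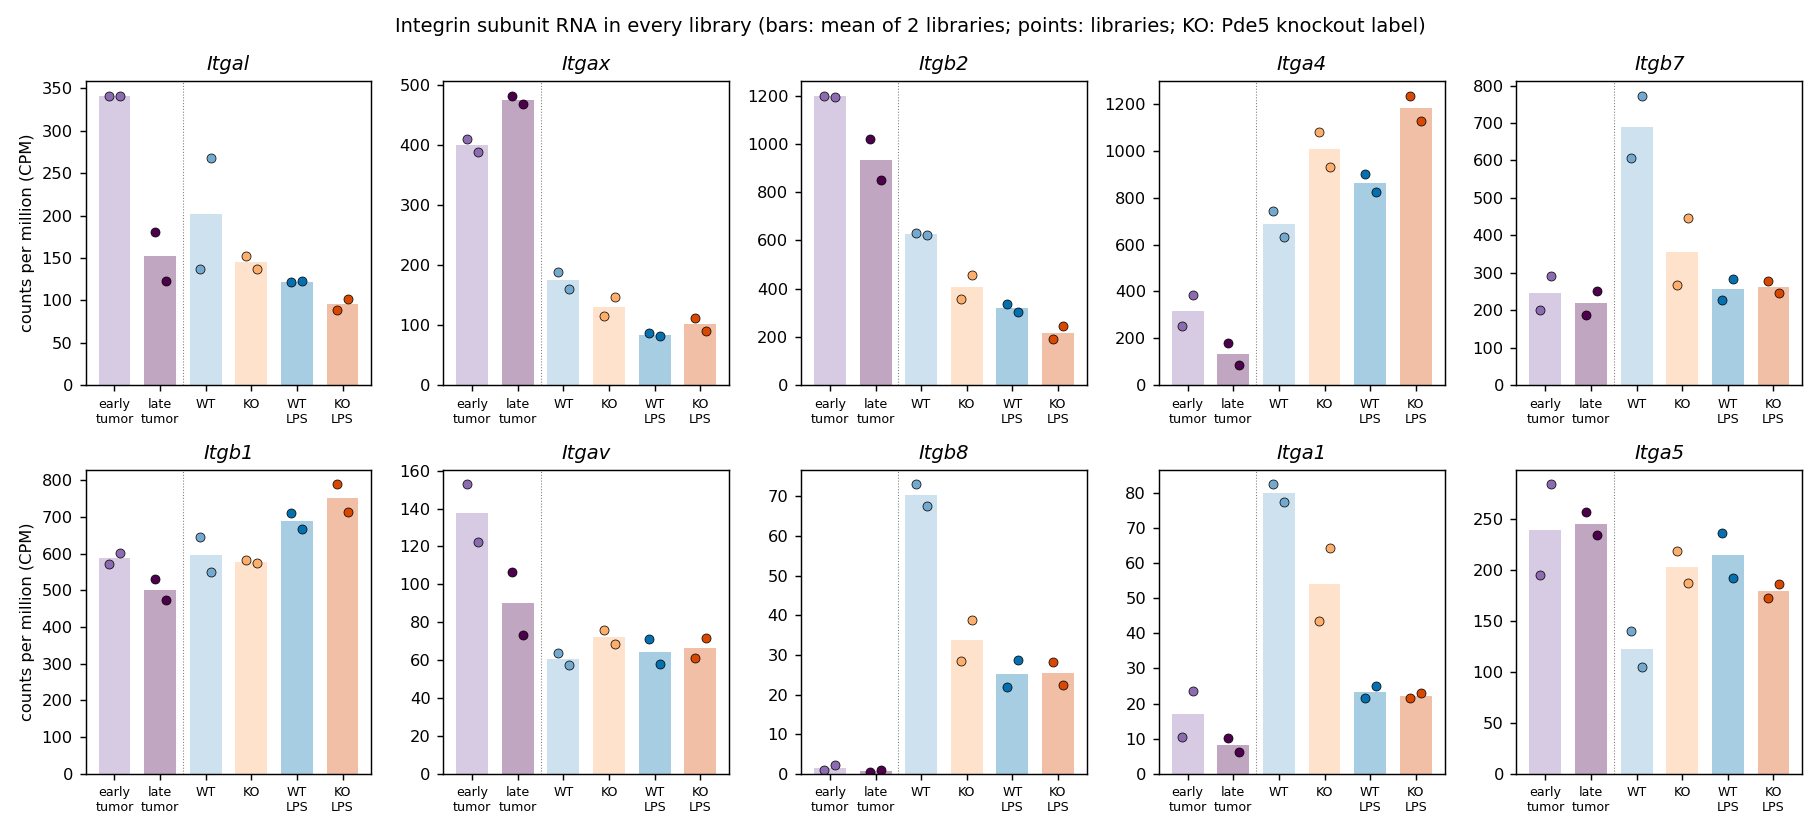
Level of each integrin gene (CPM, axes from 0) in every library; bars are means of 2 libraries, points are libraries, and the dotted line separates the tumoral from the BMDC table. By group mean, unstimulated WT BMDCs stand highest among the BMDC groups for Itgal, Itgax, Itgb2, Itgb7, Itgb8 and Itga1. They stand lowest for Itga4, Itgav and Itga5, the last at 139 and 105 CPM.

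In knockout-labelled BMDCs, 0 of the 10 genes passed the test of LPS against no stimulation, as did 0% of 13072 genes. At an unadjusted p under 0.05 there were 3 members (Itgb2, Itgb1 and Itga1) and 2800 genes. DESeq2 called those same 3 members, where it called 6.41% of all genes, and limma-voom called 0. RLE size factors, upper-quartile scaling and library size alone called 0.161% to 0.184% of all genes, and no filter on low counts 2.89%. Itga1 was called with RLE size factors, upper-quartile scaling and library size alone (adjusted p = 0.0473, 0.0448 and 0.0469), and both Itga1 and Itgb2 with no filter on low counts (adjusted p = 0.000303 and 0.00155). Without unstimulated knockout-labelled replicate 1 the log2 change was -1.43 for Itga1 and -0.96 for Itgb2. Without WT replicate 1 or 2, which are not in the contrast, the Itga1 change was -1.20. The median member change was -0.31, against -0.02 over all genes.

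Without stimulation, the knockout label went with higher Itga4 and Itga5 and with lower Itgb2, Itgb7 and Itgb8 than the WT label. These 5 of 10 members compare with 18% of 13072 genes (12% higher, 5.98% lower). With library size alone, the split of all called genes went from 1575 higher and 782 lower to 1282 higher and 1301 lower. The log2 difference, knockout label minus WT, was 0.65 for Itga4 (SE 0.141, adjusted p = 0.0166), 0.84 for Itga5 (SE 0.173, adjusted p = 0.0147), -0.53 for Itgb2 (SE 0.153, adjusted p = 0.0449), -0.85 for Itgb7 (SE 0.227, adjusted p = 0.0377) and -0.96 for Itgb8 (SE 0.184, adjusted p = 0.0106). Itgb1 differed by 0.06 (95% interval -0.22 to 0.33), Itgax by -0.32 (-0.65 to 0.02), Itgal by -0.37 (SE 0.266), Itgav by 0.36 (0.04 to 0.68) and Itga1 by -0.47 (-0.84 to -0.09), and these 5 did not pass after adjustment.

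Which members were called in this comparison changed with single libraries and settings. Without knockout-labelled replicate 1 it was 0, with adjusted p of 0.0736 for Itgb8, 0.124 for Itga5, 0.134 for Itga4, 0.148 for Itgb7 and 0.270 for Itgb2. Without WT replicate 2 it was 1 (Itgb8), and in a fit of the 2 groups alone it was also 1 (Itgb8), with adjusted p between 0.0517 and 0.0866 for the other 4. Without WT replicate 1 Itgb2 (adjusted p = 0.117) and Itgb7 (0.0580) were lost and Itgal was called (-0.76, adjusted p = 0.0116). Leaving out either LPS WT library lost Itgb2 (adjusted p = 0.0693 and 0.0695) and either LPS knockout-labelled library lost Itgb7 (0.0568 and 0.0569), although those libraries are not in the contrast. Without knockout-labelled replicate 2, Itga1 was called too (-0.75, adjusted p = 0.00887). With no filter on low counts Itgb7 was lost (-0.85, adjusted p = 0.0711) and Itga1 was called (-0.46, adjusted p = 0.0421), so the count stayed at 5. No direction of the 5 genes turned under any alternative.

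After LPS, 0 of 10 members and 0% of 13072 genes passed between the knockout and the WT label. At an unadjusted p under 0.05 there were 2 members, Itgb2 (log2 -0.58, SE 0.154, adjusted p = 0.299) and Itga4 (0.43, SE 0.141, adjusted p = 0.388), and 1330 genes. DESeq2 called 1 member, Itgb2 (-0.58, adjusted p = 0.0406), where it called 1.23% of all genes, and limma-voom called 0. The 95% intervals of the other 8 members all held 0, for example -0.51 to 0.54 for Itgb7, -0.45 to 0.41 for Itgb8 and -0.67 to 0.11 for Itga5.

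The interaction, the LPS response in knockout-labelled cells minus that in WT, passed for 1 of 10 members, Itga5, and for 4.48% of 13072 genes (0.566% higher, 3.91% lower). DESeq2 called 8.44% of all genes and the fit with no filter on low counts 4.66%. For Itga5 the interaction was -1.12 on the log2 scale (SE 0.243, adjusted p = 0.0412). The call was lost without WT replicate 2 (-0.91, adjusted p = 0.0827), without knockout-labelled replicate 1 (-0.96, adjusted p = 0.158), without LPS WT replicate 1 (-0.96, adjusted p = 0.148) or 2 (-1.26, adjusted p = 0.0596), without LPS knockout-labelled replicate 1 (-1.05, adjusted p = 0.176) or 2 (-1.19, adjusted p = 0.0774), and with a filter of 10 CPM (-1.08, adjusted p = 0.0558). Over all its alternatives the adjusted p ran from 0.000768 to 0.176. For Itgb8 the interaction was 0.94 (SE 0.263, adjusted p = 0.0854) and for Itgb7 0.87 (SE 0.320, adjusted p = 0.169). Both were called by DESeq2 (adjusted p = 0.0236 and 0.0406), and Itgb8 also with no filter on low counts (adjusted p = 0.0361). Without knockout-labelled replicate 2 the interaction was 1.16 for Itgb8 and 1.25 for Itgb7.

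The LPS comparison in WT, the label comparison without stimulation and the interaction share the 2 unstimulated WT libraries. Every member took the same direction in the first 2 of them, and the shared libraries enter both values of each gene with the same sign. Itga5, Itga4, Itgb2, Itgb7 and Itgb8 were called in both, at 1.01 and 0.84, 0.53 and 0.65, -0.77 and -0.53, -1.23 and -0.85, and -1.27 and -0.96 on the log2 scale. Itgb1, Itga1 and Itgax were called with LPS and not with the label (0.41 and 0.06, -1.58 and -0.47, -0.85 and -0.32). Itgal and Itgav were called in neither (-0.52 and -0.37, 0.29 and 0.36).

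**Figure D4:**
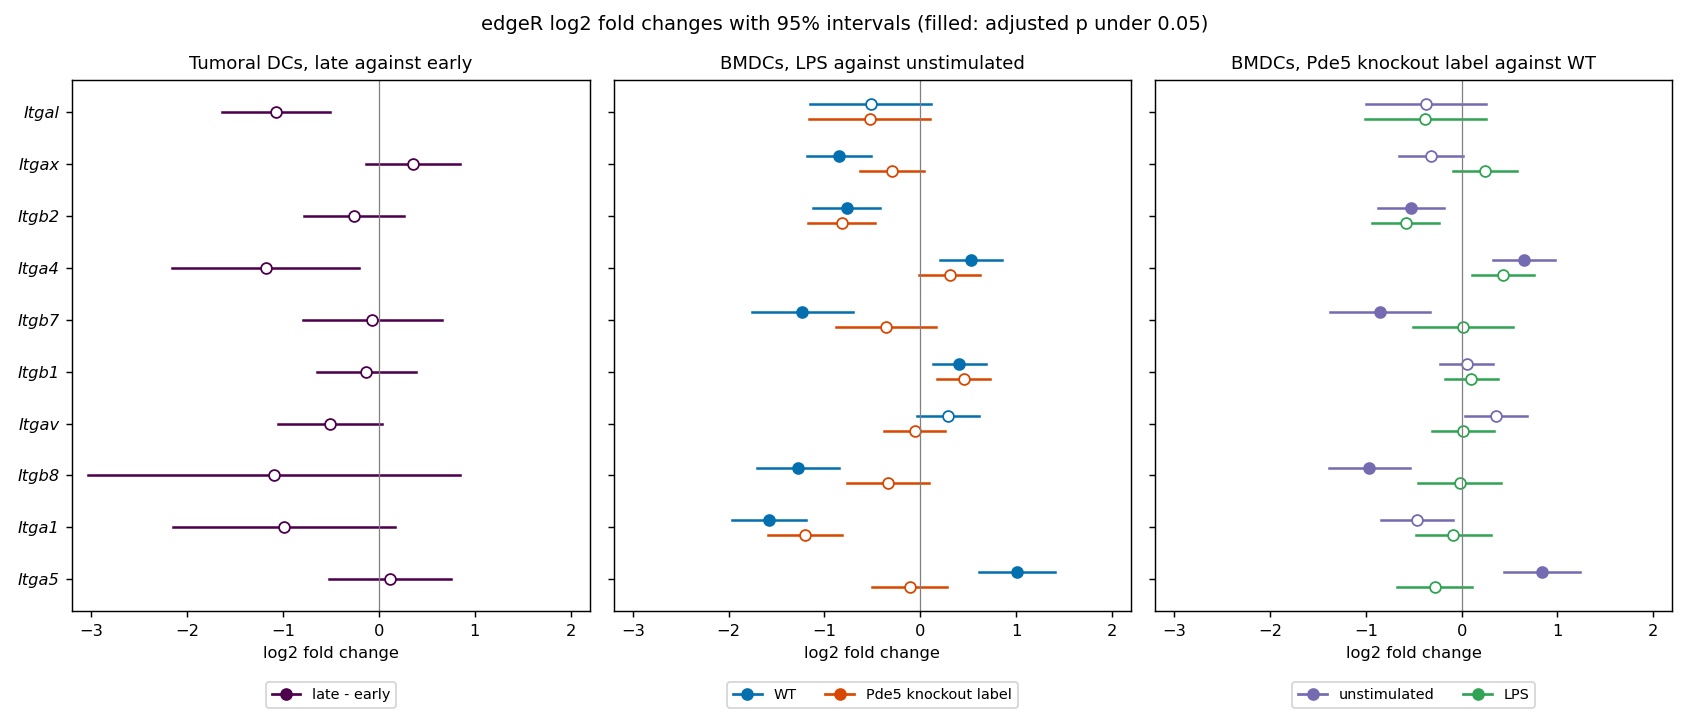
Log2 fold changes of the 10 integrin genes from edgeR in the tumoral, LPS and label comparisons, with 95% intervals derived from the F statistic of its test. Filled points passed at an adjusted p under 0.05. In the LPS panel 8 WT points are filled and none of the knockout-labelled ones, and the Itga5 points lie at 1.01 and -0.11.

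Within a library, the ratio of alpha to beta counts needs no scaling between libraries. The Itga4 to Itgb7 count ratio was 1.23 and 0.82 in unstimulated WT BMDCs and higher in every other BMDC library: 4.05 and 2.09 in knockout-labelled, 3.95 and 2.93 in LPS-treated WT and 4.44 and 4.59 in LPS-treated knockout-labelled cells. The Itga4 to Itgb1 ratio separated the labels instead, at 1.16 and 1.15 in WT and 1.27 and 1.24 in LPS-treated WT against 1.86 and 1.63 and 1.57 and 1.58 with the knockout label. The Itga5 to Itgb1 ratio was 0.216 and 0.191 in unstimulated WT, 0.376 and 0.327 in knockout-labelled, 0.332 and 0.287 in LPS-treated WT and 0.218 and 0.261 in LPS-treated knockout-labelled libraries. These ratios are of counts, so their absolute size also carries the lengths of both genes, and only their differences between libraries are read here.

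For the TGF-beta-activating pair, Itgav to Itgb8 counts were at 0.871 and 0.853 in unstimulated WT and at 1.77 to 3.26 in the other 6 BMDC libraries. The Itga1 to Itgb1 ratio was 0.128 and 0.141 in unstimulated WT and 0.0749 and 0.112 in knockout-labelled cells, and lay between 0.0273 and 0.0373 in the 4 LPS libraries. In tumoral DCs the 2 alpha chains that share Itgb2 went opposite ways: Itgal to Itgb2 was 0.284 and 0.286 early and 0.177 and 0.145 late, while Itgax to Itgb2 was 0.342 and 0.326 early and 0.472 and 0.553 late. The ratios were not tested.

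**Figure D5:**
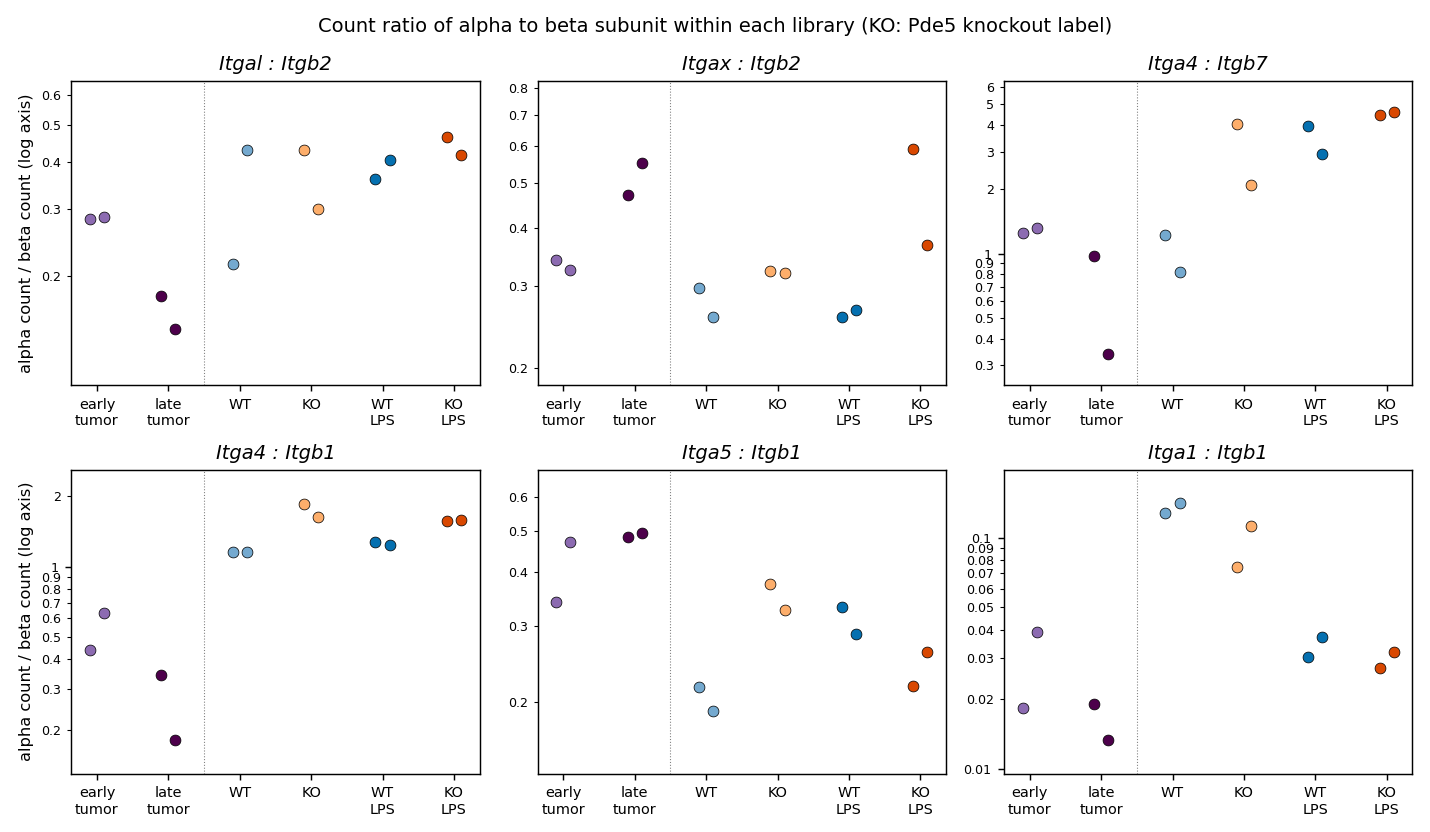
Ratio of alpha to beta subunit counts within each library (log axes) for 6 known pairs, with points for libraries. The Itga4 to Itgb7 ratio is lowest among BMDCs in unstimulated WT, at 0.82 and 1.23, and the Itgal to Itgb2 ratio is lower in both late than in both early tumoral libraries.

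Of 17 other integrin subunits, 12 were tested in BMDCs, and with LPS in WT 3 rose and 4 fell. Over all genes tested, 20% rose and 17.6% fell with LPS in WT. For the label without stimulation 12% of all genes were higher and 5.98% lower. Itgae (CD103), the alpha chain that pairs with Itgb7, was at 105 and 92.2 CPM in unstimulated and 6.95 and 13.5 CPM in LPS-treated WT libraries, a log2 change of -3.07 (SE 0.479, adjusted p = 0.00355). Itga6, a laminin receptor chain, fell (-1.08, SE 0.255, adjusted p = 0.0121), as did Itgb5, a partner of Itgav (-0.78, SE 0.203, adjusted p = 0.0193). Itga3, another laminin receptor chain, rose from 10.5 and 7.26 to 15.9 and 16.3 CPM (1.05, SE 0.198, adjusted p = 0.00432). Itgb4 and Itga9 also passed upward, from very few counts in unstimulated WT: 6 and 3 against 18 and 36 after LPS for Itgb4, and 40 and 2 against 195 and 162 for Itga9. For the knockout label without stimulation, against the same unstimulated WT libraries, 3 of 12 were higher and 0 lower: Itgb4 at 42 and 38 counts, Itga9 at 305 and 196 counts and Itga3 at 333 and 309 against 178 and 117 counts. In tumoral DCs 0 of 14 tested passed, and 5 had an unadjusted p under 0.05.

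Among 37 tested genes of integrin activation and linkage to actin, 8 rose and 9 fell with LPS in WT, with a median of -0.06. The shares over all genes were 20% higher and 17.6% lower for LPS in WT. They were 12% higher and 5.98% lower for the label without stimulation. The Src-family kinases Fgr (log2 1.39, adjusted p = 0.000378) and Src (0.93, adjusted p = 0.00110) and the integrin-binding exchange factor Cyth1 (1.11, adjusted p = 0.00180) rose. Parvg, the leukocyte parvin that anchors integrins to actin, fell (-1.45, adjusted p = 0.000796), as did Rassf5, the Rap1 effector of LFA-1 activation (-1.10, adjusted p = 0.00449), and the focal adhesion kinase relative Ptk2b (-0.56, adjusted p = 0.00509). For the knockout label without stimulation 6 of the 37 were higher and 3 lower, with a median of -0.14. Fgr (1.14, adjusted p = 0.00177), Cyth1 (0.99, adjusted p = 0.00678) and the actin crosslinker Actn1 (0.55, adjusted p = 0.0199) were among the former, and Dock2 (-0.46, adjusted p = 0.0204), Parvg (-0.75, adjusted p = 0.0220) and Ptk2b (-0.41, adjusted p = 0.0326) were the latter.

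Of 18 tested ligands and counter-receptors, 6 rose and 2 fell with LPS in WT, with a median of 0.23. Over all genes 20% rose and 17.6% fell in that comparison. With the label, unstimulated, 12% of all genes were higher and 5.98% lower. Icam1, the LFA-1 ligand, rose from 287 to 301 CPM in the unstimulated to 485 to 507 CPM in the LPS libraries (log2 0.96, adjusted p = 0.000580). Nid1 (2.07, adjusted p = 0.000443) and Lama5 (1.63, adjusted p = 0.0115), both basement membrane proteins that stayed at or under 21.9 CPM, also rose, and Tnc (-1.18, adjusted p = 0.0104) and Fn1 (-0.91, adjusted p = 0.0185), both matrix proteins, fell. For the knockout label without stimulation 4 of 18 were higher and 0 lower, Icam1 among them (0.57, adjusted p = 0.0105) with Thbs1 (2.18, adjusted p = 0.00881) and Lama5 (2.44, adjusted p = 0.00455).

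Of 12 tested genes around latent TGF-beta, on which Itgav with Itgb8 acts, 2 rose and 4 fell with LPS in WT, with a median of -0.26. The all-gene shares were 20% higher and 17.6% lower for LPS in WT. For the label without stimulation they were 12% and 5.98%. The receptors Tgfbr1 (-0.82, adjusted p = 0.00173) and Tgfbr2 (-0.73, adjusted p = 0.0136) and the ligand Tgfb1 (-0.31, adjusted p = 0.0426) fell, and Tgfb2 (0.82, adjusted p = 0.0144) and the Smad repressor Skil (0.63, adjusted p = 0.00785) rose. With the knockout label Skil was higher (0.52, adjusted p = 0.0311) and Tgfbr1 lower (-0.58, adjusted p = 0.0153). Of 13 tested trafficking genes 2 rose (Rab21 and Rab5a, at 0.62 and 0.35, adjusted p = 0.00573 and 0.0299) and 1 fell with LPS (Acap1, at -1.71, adjusted p = 0.00987), and with the label 1 was higher, the endocytic adaptor Dab2 (0.76, adjusted p = 0.0466). In the tumoral comparison, in the LPS comparison with the knockout label and in the label comparison after LPS, 0 genes of these 5 lists passed, and between 0 and 11 of a list had an unadjusted p under 0.05.

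Cell identity markers moved in the BMDCs too, where 20% of all genes rose and 17.6% fell with LPS in WT. For the label without stimulation 12% of all genes were higher and 5.98% lower. Of 19 conventional DC markers 6 rose and 7 fell with LPS in WT, and their summed level was 28472 to 29780 CPM unstimulated and 21825 to 25964 CPM after LPS. With the knockout label it was 21656 to 25750 CPM unstimulated and 21397 to 21598 CPM after LPS, and without stimulation 3 of the 19 were higher and 3 lower than with the WT label. The 14 monocyte and macrophage markers summed to 2461 to 2512 CPM in unstimulated WT, 1967 to 2442 in LPS-treated WT, 2481 to 2853 in knockout-labelled and 1079 to 1906 CPM in LPS-treated knockout-labelled cells. Tested singly, 6 of the 14 rose and 3 fell with LPS in WT (median log2 0.88). Without stimulation 3 of them were higher and 1 lower with the knockout label (median log2 0.86). The 10 neutrophil markers summed to 119 to 190 CPM in unstimulated WT and at most to 98.5 CPM in every other BMDC library, with the defining gene Ly6g at 0 to 1 count throughout. Of 9 tested neutrophil markers 0 rose and 5 fell with LPS in WT. Without stimulation 0 were higher and 4 lower with the knockout label. The 17 T cell markers summed to 285 to 299 CPM in unstimulated WT, 428 to 433 in LPS-treated WT, 375 to 407 in knockout-labelled and 505 to 526 CPM in LPS-treated knockout-labelled cells. Most of this was Tcf7, at 269 to 480.1 CPM as group means, while the defining genes Cd3d, Cd3e and Cd3g had 2 to 20 counts per library. Of 13 tested T cell markers 3 rose and 1 fell with LPS in WT, and 2 were higher with the knockout label without stimulation. The part of these markers in the integrin differences was not tested.

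Patterns were compared across the 8 BMDC libraries by the root mean square difference of centred log2 CPM, over 10082 genes. Itgb7 and Itgb8 were the closest pair of members, 0.149 apart on the log2 scale, and Itgb7 was the 14th nearest gene to Itgb8. The gene nearest to Itga5 was Nup98 (0.0917), with Pirb next (0.0992). Nearest to Itgb7 were Aacs (0.0780) and Nqo2 (0.0820), to Itgb8 Kcnk13 (0.0841) and Adam23 (0.111), and to Itga1 Akr7a5 (0.133) and Mvb12b (0.136). For Itgb2 they were Psap (0.0658) and Gcsh (0.0759), for Itgax Uhrf1bp1l (0.0673) and Pdgfa (0.0780), for Itga4 Mcl1 (0.0637) and Cystm1 (0.0710), for Itgb1 Aptx (0.0507) and Kpna3 (0.0515), for Itgav Usp40 (0.0458) and Slc25a30 (0.0582), and for Itgal Axl (0.137) and Ccnj (0.165). A gene that varies little has many such neighbours, and the 8 points share libraries, so the distances only describe these libraries.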

How the data were processed

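The deposited values are raw read counts per gene symbol, made by the authors with fastp 0.12.4, HISAT2 2.2.1 and featureCounts 2.0.1 on mm10, per the submitters' processing notes, which give no role or order. Which gene models and strand setting were used, and how reads with several matches were treated, is not given in the sources used here, and the labels' extraction text speaks of another tissue. The 10 members, the gene lists, the motifs and the tests were chosen with earlier results of these data known.

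The main test was edgeR's (4.0.16, R 4.3.3) robust quasi-likelihood test on the deposited counts, with TMM scaling and filterByExpr (minimum count 10), fitted on the 4 tumoral and on the 8 BMDC libraries separately, with p-values adjusted by Benjamini-Hochberg across every tested gene of a comparison. Calls were made under 0.05, and every adjusted p in the text is edgeR's unless DESeq2 (1.42.0) or limma-voom (3.58.1) is named. The test itself gives no SE, so each SE of a log2 difference was its absolute value over the square root of the F statistic. The 95% intervals took a t quantile on this SE, with the degrees of freedom of the test. Genes kept by the filter held at least 99.89% of each library's counts. Levels per kb used the union of exons in the GRCm38 GENCODE annotation. List genes named in the text were at most the 3 with the smallest adjusted p per list, comparison and direction among those called (mean log2 CPM from 0 up). The 2 nearest genes of each member were drawn from those whose mean log2 CPM reached 2. Alternatives were other scalings, no filter, a filter of 10 CPM, a replicate block, the compared groups alone, DESeq2, limma-voom and each library left out. Testing code was tried on simulated data. A result on 1 list gene is not reported here.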

Additional observations from a re-analysis of the deposited data

Results flagged for a closer look

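The response of Itga5 to LPS differed between the labels by the interaction test, at -1.12 on the log2 scale (knockout-labelled minus WT, edgeR adjusted p = 0.0412). As given above, several alternatives lost this call. A negative interaction passed for 1 of 12 other integrin subunits, 2 of 37 activation and linkage genes and 1 of 18 ligands and counter-receptors. It passed for 0 of 12 latent TGF-beta genes, 0 of 13 trafficking genes and 3.91% of all genes. Of the list genes, 3 are given here. Fgr, a Src-family kinase, differed by -1.26 (adjusted p = 0.0134), with 16.7 to 19.4 CPM in unstimulated WT and 34.5 to 43.7 CPM in the other 3 BMDC groups. Thbs1, a matrix glycoprotein, differed by -2.40 (adjusted p = 0.0431), with 262 to 376 CPM in unstimulated knockout-labelled cells and 75.3 to 169 CPM in the other 3 groups. Itgb4 differed by -3.05 (adjusted p = 0.0481) on very few counts, at most 42 in a library and 3 to 6 in unstimulated WT.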

How the results depend on the processing

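The 14 called member values kept their direction in all 237 of their alternatives and stayed called in 200. Members that were not called changed sign in 33 values. With library size alone these were the interaction of Itgal (0.12) and Itgb2 (0.068), the unstimulated label difference of Itgb1 (-0.047) and the label difference of Itgb8 after LPS (0.0019), and for the Itgal interaction also upper-quartile scaling (0.012) and the 10 CPM filter (0.021). Leaving out 1 library at a time gave ranges through 0 for late against early tumoral DCs in Itga5 (-0.20 to 0.54), Itgb7 (-0.39 to 0.35) and Itgb1 (-0.25 to 0.0192). It did so for LPS in WT in Itgal (-0.91 to 0.0221) and for LPS in knockout-labelled cells in Itgav (-0.19 to 0.0655), Itga5 (-0.24 to 0.0387) and Itgb7 (-0.66 to 0.0284). For the label it did so without stimulation in Itgal (-0.76 to 0.17) and Itgb1 (-0.0748 to 0.20), and after LPS in Itgb7 (-0.13 to 0.17), Itgav (-0.13 to 0.17), Itgb8 (-0.21 to 0.19) and Itga1 (-0.19 to 0.0158). For the interaction it did so in Itgal (-0.55 to 0.38), Itgb1 (-0.10 to 0.17) and Itgb2 (-0.26 to 0.12).

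The number of members called between tumor stages was 0, but 2 with no filter, 1 with DESeq2 and 0 to 3 with 1 library left out. For LPS in knockout-labelled cells it was 0, but 1 with RLE size factors, upper-quartile scaling or library size alone, 2 with no filter, 3 with DESeq2 and 0 to 2 with 1 library left out. For the label without stimulation it was 5 (with no filter also 5, Itga1 in place of Itgb7), but 1 with the compared groups alone and 0 to 6 with 1 library left out, and after LPS it was 0, but 1 with DESeq2. For the interaction it was 1, but 2 with no filter, 0 with the 10 CPM filter, 3 with DESeq2 and 0 to 3 with 1 library left out. With no filter, 3.72% of all genes were called between tumor stages, 2.89% for LPS in knockout-labelled cells and 4.66% for the interaction. DESeq2 called 2.27%, 6.41% and 8.44% of all genes there, and 1.23% for the label after LPS. The cause of the shifts in these numbers was not tested.

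Over all genes the calls numbered 3 between tumor stages (0 to 1063 with 1 library left out, 0 to 689 over the other settings), 4910 for LPS in WT (likewise 2676 to 4831, lowest without LPS WT replicate 1, and 4181 to 5417), 0 for LPS in knockout-labelled cells (0 to 615 and 0 to 765), 2357 for the label without stimulation (593 to 2717 and 993 to 2583), 0 after LPS (0 to 65 and 0 to 152) and 585 for the interaction (58 to 1076 and 450 to 1071). Library-size scaling moved the median of all genes from -0.02 to -0.23 for LPS in WT, from -0.01 to -0.11 for the label without stimulation and from -0.01 to 0.12 for the interaction. Replicate numbers pair no samples by the labels, and same-numbered libraries deviated together with correlations of -0.04 between tumor stages and -0.20 to 0.28 between BMDC groups. With the numbers as a replicate block, 2 members were called for LPS in knockout-labelled cells (Itgb2 and Itga1) and no other member call changed, while calls over all genes there came to 147 higher and 174 lower and between tumor stages to 35 higher and 138 lower. With 2 libraries a group, leaving one out leaves a lone library that is assumed to vary like the other groups. Counts of Itgb8 in tumoral DCs (7 to 36) and of Itgb4 limit what can be seen of these genes.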
